A study of Homo sapiens with 12 samples.

Results

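The mTOR kinase, its partner proteins and the TSC complex that restrains it were followed from mRNA to ribosome-protected fragments (RPF) in IMR90 cells, a fibroblast line from normal human lung, as the cells passed from proliferation into replicative senescence. The set holds 10 listed symbols of the 38716 in the tables. These are MTOR, MLST8 and DEPTOR, which belong to both mTOR complexes, RPTOR and AKT1S1 of mTORC1, RICTOR of mTORC2, TSC1 and TSC2, the GTPase RHEB, and the S6 kinase RPS6KB1. The symbols were listed by name, with earlier results of these data known, and all 10 were found in every table. Proliferating cells (Pro) were early-passage cultures, and senescent cells (Sen) had been passaged until they no longer divided. Each state had 3 independently grown cultures lysed in a buffer with cycloheximide, which halts ribosomes on mRNA, and each lysate gave 1 Ribo-seq and 1 poly(A) RNA-seq library, 12 libraries in all. The protocol names more than 1 isolate of the line without tying any sample to one, and the RNA-seq tables of proliferating cells carry a tag resembling DMSO that no label mentions, so neither can be told apart from the state.

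mTOR is a protein kinase that couples nutrient and growth factor supply to cell growth. In mTORC1 it is joined by RPTOR (raptor), which brings substrates to it, and by the inhibitory partner AKT1S1 (PRAS40). In mTORC2 it is joined by RICTOR, and that complex phosphorylates AKT and SGK1. TSC1 and TSC2 together switch off RHEB, which activates mTORC1 at the lysosome, and RPS6KB1 and the eIF4E-binding proteins carry its signal to the translation machinery. Senescent cells are known for persistent mTORC1 activity, which is set largely by phosphorylation and location of these proteins, and neither quantity was measured here.

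mTORC1 controls most tightly the translation of mRNAs with a 5′ terminal oligopyrimidine (TOP) motif, so the first bases of the transcripts that encode the pathway itself are shown first. The windows come from RefSeq annotation of GRCh38.p14, each with 15 bases before and 15 from the annotated start on, 5′ to 3′ on the gene's own strand, and the capitals mark the first 5 transcribed bases. The last 2, which encode elongation factors, are given as TOP mRNAs for contrast.
MTOR (chr1:11262537-11262566, minus strand): aaccctccttccctcGCTCCcggcttagag
RPTOR (chr17:80544823-80544852, plus strand): cgcggtgcattctggGTCCTggcaatatgg
RICTOR (chr5:39074385-39074414, minus strand): ggcgaggtttccggtGTTGTgactgaaacc
TSC2 (chr16:2047970-2047999, plus strand): ggaagtgcgggtcgcGCTTCcggcggcgtc
RHEB (chr7:151519881-151519910, minus strand): gcggcggaagaaggtGGGAGggtcatgacg
EEF2 (chr19:3985449-3985478, minus strand): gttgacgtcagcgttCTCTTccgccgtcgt
EEF1A1 (chr6:73521018-73521047, minus strand): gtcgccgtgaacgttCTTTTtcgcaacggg

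A start was counted as TOP-like when its first base was C and the next 4 were C or T, read on the transcribed strand alone. None of the 8 annotated starts of the 7 members in the reference table met this, those of TSC1 and RPS6KB1 and a second start of TSC2 included. The share was 4.6% over 21579 starts of protein-coding genes and 71.4% (10 of 14 starts) in a list of mRNAs known as TOP mRNAs. Annotated starts are single bases chosen by the annotation and need not be the start used in these cells. AKT1S1, MLST8 and DEPTOR had no entry.

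Each RNA-seq library assigned 7902427 to 14144455 reads to mRNAs. The depth of Ribo-seq was far lower, and Pro 1 and Sen 2 stood apart with 54421 and 54708 CDS reads against 583798 to 1718521 in the other 4. The CDS held 34.4% and 15.0% of the assigned reads in Pro 1 and Sen 2. Among the deeper libraries it held 54.7% in Sen 3 and 77.8% to 88.8% in the rest. In the shallow libraries Pro 1 and Sen 2, 3 reads made 52.1 and 52.7 CPM. RICTOR, TSC1, RPS6KB1, MLST8 and DEPTOR had mean RPF levels below this floor in both states. The highest of these means was 32.0 CPM, for RICTOR in senescent cells. Only MTOR, AKT1S1 and TSC2 had means above the floor in both states. All 10 fibroblast markers exceeded 10 CPM in every RNA-seq library. The epithelial, endothelial and leukocyte markers in the table stayed under 1 CPM in every library, other than EPCAM and CD68. EPCAM had at most 1.03 CPM, while CD68 had 18.9 to 34.1 CPM and so also exceeded 10 CPM in every library. The leukocyte markers, led by CD68, summed to 19.4 to 21.1 CPM in proliferating and 31.3 to 34.4 CPM in senescent libraries. In senescent cells the mRNA and RPF of HMGB1, LMNB1 and the proliferation marker MKI67 fell and those of the cell cycle inhibitors CDKN1A and CDKN2A rose. Levels are CPM with TMM factors, SDs are over 3 replicates, and fold changes are on the log2 scale, senescent over proliferating, from edgeR's quasi-likelihood test with Benjamini-Hochberg adjustment over all tested genes. A gene was called changed at an adjusted p under 0.15. In bulk lysates fewer cells expressing a gene and less RNA per cell cannot be told apart.

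The mRNAs of the mTOR and TSC genes moved little between the states. All 10 passed the filter on low counts, and 6 were called changed, 3 higher (AKT1S1, TSC2, RHEB) and 3 lower (RICTOR, RPTOR, MLST8). Over all 12787 genes tested 73.6% were called, with 36.6% higher and 37.0% lower, so the members' count is near the background. On library totals without TMM factors, which moved the median of all genes to -0.11 for mRNA and -0.14 for RPF, the split of the members was 1 higher (AKT1S1) and 6 lower (RICTOR, RPTOR, MLST8, DEPTOR, RPS6KB1 and TSC1). The sizes were smaller than the background, with a median absolute log2 fold change of 0.18 in the members against 0.39 over all genes at a similar SE (median 0.09 against 0.1). The largest was 0.54, for AKT1S1. The 3 replicates of each state did not overlap for AKT1S1, RHEB and DEPTOR, and over all genes this held for 67.8%. AKT1S1 and RHEB were both called and free of overlap, as were 65.9% of all genes.

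**Figure D1:**
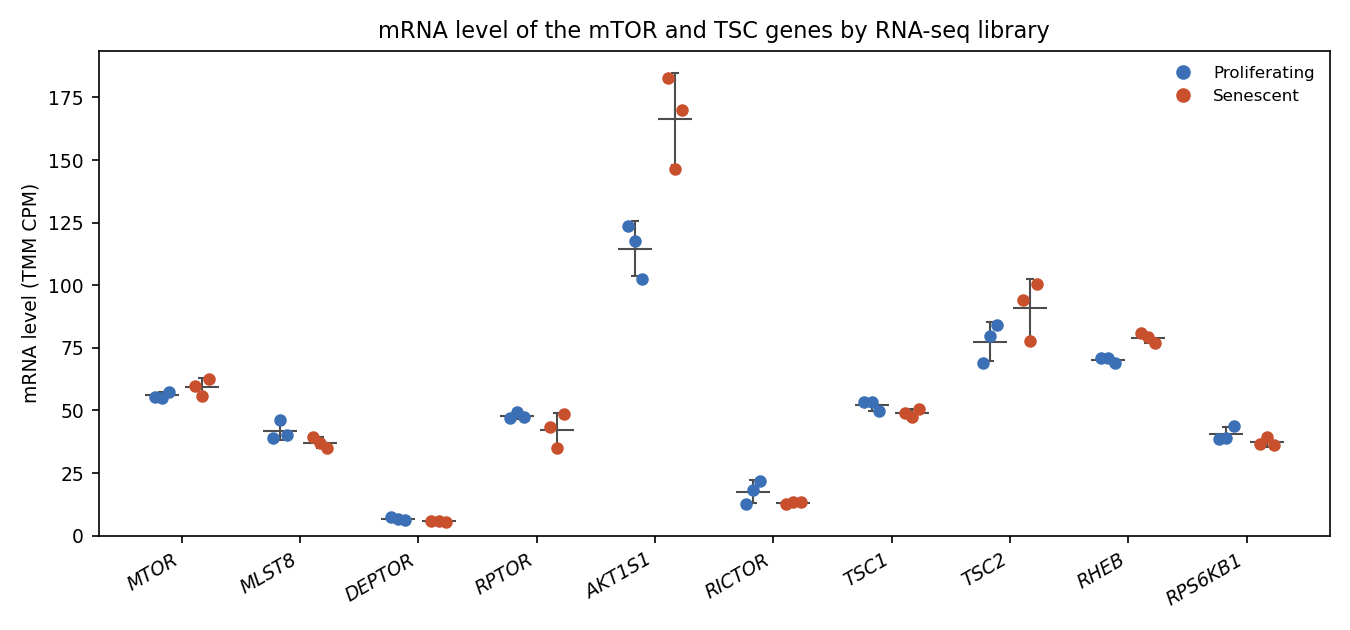
mRNA level (TMM CPM) of the 10 genes in each RNA-seq library, with points for the 3 proliferating and 3 senescent replicates and bars for mean and SD. Only AKT1S1, RHEB and DEPTOR show no overlap, and the AKT1S1 replicates lie between 102 and 124 CPM in proliferating and between 147 and 183 CPM in senescent cells.

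MTOR itself, the kinase at the centre of both complexes (chromosome 1, 11166592 to 11322613, minus strand, GRCh37), had an almost constant mRNA. Its level was 55.5, 54.9 and 57.5 CPM in Pro 1 to 3 and 59.9, 55.6 and 62.6 CPM in Sen 1 to 3, and the groups overlapped. The log2 fold change was 0.08 ± 0.08 (SE; 95% interval -0.08 to 0.24) with an adjusted p of 0.354. On library totals MTOR was -0.02 in mRNA and -0.002 in RPF, a little above the median of all genes in both.

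The subunits shared by both complexes were lower or overlapped. MLST8, a WD40-repeat protein that stabilises the kinase domain (chromosome 16, 2254249 to 2259454), measured 39.1, 46.1 and 40.2 CPM in proliferating and 39.4, 37.1 and 35.0 CPM in senescent replicates. It was called lower at -0.18 ± 0.09 with an adjusted p of 0.0828, but the groups overlapped, and the call was lost without Pro 2 (-0.10, adjusted p 0.424) or without Sen 3 (-0.15, adjusted p 0.179), with DESeq2 (-0.17, adjusted p 0.166) and in CDS reads only (-0.13, adjusted p 0.232). DEPTOR, which inhibits the kinase, had the fewest reads of the set, 56 to 82 in a library. Its level was 7.32, 6.75 and 6.33 CPM in proliferating and 5.96, 6.01 and 5.39 CPM in senescent replicates. Every senescent replicate lay below every proliferating one, yet the log2 fold change of -0.22 ± 0.15 was not called (adjusted p 0.187), other than on library totals (-0.33, adjusted p 0.0534).

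Among mTORC1 partners, AKT1S1 (chromosome 19, 50372290 to 50381716, minus strand) gave the clearest change of the set. AKT1S1 encodes PRAS40, which holds mTORC1 back until AKT phosphorylates it. Its mRNA was at 124, 118 and 102 CPM in proliferating and 183, 147 and 170 CPM in senescent replicates, from 1013 to 2001 reads a library. The groups did not overlap, and the 1.45-fold rise (log2 0.54 ± 0.09, 95% interval 0.36 to 0.72) had an adjusted p of 1.08e-05. RPTOR (chromosome 17, 78518619 to 78940171) lay at 47.0, 49.5 and 47.4 CPM in proliferating and at 43.5, 35.1 and 48.4 CPM in senescent replicates. It was called lower at -0.19 ± 0.10 (adjusted p 0.0961), and the value came mainly from Sen 2, since without it the fold change was -0.07 (adjusted p 0.516). The RPTOR call was also lost without Pro 2 (-0.16, adjusted p 0.233) and with DESeq2 (-0.18, adjusted p 0.175), and without Sen 3 the value was -0.31 (adjusted p 0.00588).

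RICTOR, the subunit that defines mTORC2 (chromosome 5, 38938022 to 39074504, minus strand), was called lower. It measured 12.7, 18.3 and 21.8 CPM in proliferating cells and a narrow 12.8, 13.6 and 13.3 CPM in senescent cells. The log2 fold change was -0.43 ± 0.14 (95% interval -0.72 to -0.14, adjusted p 0.0102). The groups overlapped because Pro 1 stood at the senescent level, and the call held when any 1 library was left out, with the smallest value without Pro 3 (-0.26, adjusted p 0.126). Without both shallow lysates it was -0.62 (adjusted p 0.000614).

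In the TSC branch, TSC2 and RHEB were called higher and TSC1 was not called. TSC2, the subunit with the GTPase-activating domain (chromosome 16, 2097968 to 2139492), was at 69.0, 79.6 and 84.0 CPM in proliferating and 94.2, 77.7 and 101 CPM in senescent replicates. Its log2 fold change was 0.22 ± 0.09 (adjusted p 0.0394) with overlapping groups, and the call was lost without Pro 1 (0.15, adjusted p 0.206) or Sen 3 (0.13, adjusted p 0.223). TSC1, the partner that stabilises TSC2 (chromosome 9, 135766735 to 135822261, minus strand), lay at 53.2, 53.5 and 49.6 CPM against 48.8, 47.2 and 50.6 CPM (log2 -0.09 ± 0.08, adjusted p 0.298), and on library totals it was called lower at -0.20 (adjusted p 0.0286). RHEB, the GTPase that TSC2 inactivates (chromosome 7, 151163098 to 151217206, minus strand), gave tight replicates of 71.0, 70.8 and 69.1 CPM in proliferating and 80.9, 79.4 and 77.0 CPM in senescent cells. The groups did not overlap and the rise was 1.12-fold (log2 0.17 ± 0.07, adjusted p 0.041). RHEB has 3 annotated pseudogenes by name, and reads shared with them could not be separated. On library totals TSC2 was at 0.12 and RHEB at 0.06, neither called, both above the median of all genes on that scale.

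RPS6KB1, the kinase that phosphorylates ribosomal protein S6 (chromosome 17, 57970407 to 58027935), was not called. Its mRNA was at 38.6, 39.2 and 43.9 CPM in proliferating and 36.5, 39.3 and 36.0 CPM in senescent replicates, a log2 fold change of -0.12 ± 0.08 (adjusted p 0.217). It was called lower without Sen 2 (-0.17, adjusted p 0.107), without both shallow lysates (-0.19, adjusted p 0.0829) and on library totals (-0.23, adjusted p 0.0243).

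At the RPF level fewer members could be tested and fewer were called. MLST8 and DEPTOR did not pass the filter, with 86 and 19 footprints over all 6 libraries. Of the other 8, AKT1S1 was called higher and RICTOR lower, where 54.4% of the 7521 tested genes were called. On library totals RHEB was called lower as well (-0.46, adjusted p 0.0845). The median absolute log2 fold change was 0.23 in these 8 members and 0.49 over all genes at the same median SE of 0.26. No called member had groups that did not overlap, which over all genes held for 28.3%.

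**Figure D2:**
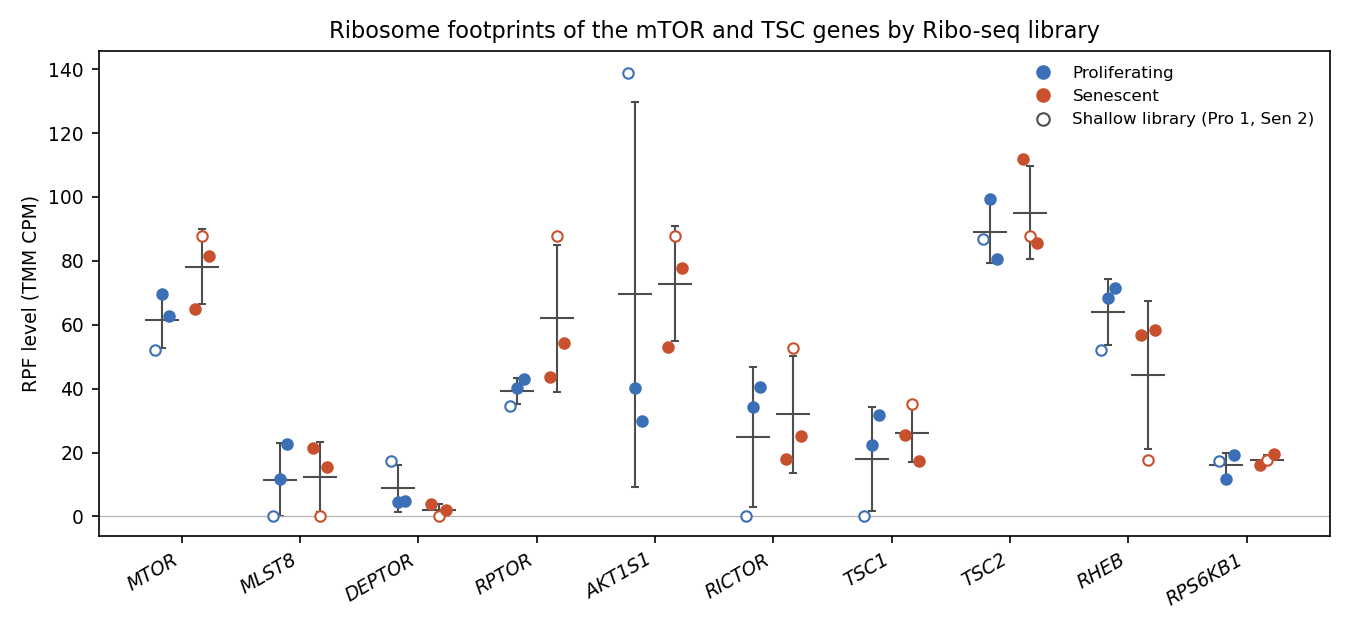
RPF level (TMM CPM) of the 10 genes in each Ribo-seq library, with bars for mean and SD and open circles for the shallow libraries Pro 1 and Sen 2, in which 3 reads already make about 52 CPM. The open circles carry most of the spread, as for AKT1S1 with 139 CPM from 8 reads in Pro 1 and for RICTOR with 0 reads in Pro 1.

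AKT1S1 footprints numbered 8, 27 and 50 in Pro 1 to 3 and 79, 5 and 40 in Sen 1 to 3. In CPM this was 139, 40.1 and 29.8 in proliferating and 52.9, 87.9 and 77.8 in senescent cells. Among the 4 deeper libraries both senescent values lay above both proliferating ones, and the 8 reads of Pro 1 made the highest value of all. The fit, which weights libraries by their depth, gave 0.76 ± 0.27 (95% interval 0.22 to 1.30, adjusted p 0.0196), and without both shallow lysates it gave 0.88 (adjusted p 0.00794). The call was lost without Pro 3 (0.33, adjusted p 0.528) and with DESeq2 (0.44, adjusted p 0.743).

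RICTOR footprints numbered 0, 23 and 68 in proliferating and 27, 3 and 13 in senescent libraries. These were 0, 34.1 and 40.5 CPM against 18.1, 52.7 and 25.3 CPM. The plain mean over 3 libraries was higher in senescent cells (32.0 against 24.9 CPM), while the 4 deeper libraries and the fit had it lower, at -0.79 ± 0.33 (95% interval -1.44 to -0.14, adjusted p 0.0454). Without both shallow lysates the fold change was -0.92 (adjusted p 0.0148). It was not called without Pro 3 (-0.54, adjusted p 0.405), without Sen 1 (-0.36, adjusted p 0.64) or with DESeq2 (-0.32, adjusted p 0.877). A count of 0 in Pro 1 allows up to 3 reads, or 52.1 CPM, and so says little of the level there.

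The remaining members had no called RPF change. MTOR gave 52.1, 69.8 and 62.6 CPM in proliferating and 65.0, 87.9 and 81.7 CPM in senescent libraries, and the log2 fold change was 0.14 ± 0.22 (95% interval -0.29 to 0.57, adjusted p 0.633). TSC2, with the most footprints of the set (423), gave 86.8, 99.4 and 80.5 CPM against 112, 87.9 and 85.5 CPM, at 0.23 ± 0.19 (adjusted p 0.357). RHEB gave 52.1, 68.3 and 71.5 CPM against 56.9, 17.6 and 58.3 CPM, at -0.32 ± 0.22 (adjusted p 0.251), and was called lower at -0.39 (adjusted p 0.127) without Pro 1.

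RPTOR was the 1 member whose RPF groups did not overlap, as did 32.5% of all genes. Its libraries held 2, 27 and 72 footprints in proliferating and 65, 5 and 28 in senescent cells, or 34.7, 40.1 and 42.9 against 43.6, 87.9 and 54.4 CPM. The highest proliferating and lowest senescent values were close, and the log2 fold change of 0.22 ± 0.26 was not called (adjusted p 0.516). TSC1 (117 footprints) was at -0.23 ± 0.33 and RPS6KB1 (76 footprints) at 0.02 ± 0.38, with 95% intervals from -0.89 to 0.43 and from -0.74 to 0.78. A change as large as that of AKT1S1 mRNA lies inside the RPS6KB1 interval in either direction and was not detectable at this depth. MLST8 had 0, 8 and 38 footprints in proliferating and 32, 0 and 8 in senescent libraries, and DEPTOR had 1, 3 and 8 against 6, 0 and 1.

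Translational efficiency (TE), the footprints on a coding sequence relative to the mRNA of the same lysate, was tested as the interaction of library type and state over all 12 libraries. None of the 8 tested members was called by edgeR, where 10.0% of 7473 genes were (6.32% higher and 3.73% lower, and 4.99% also without overlap of the groups), and DESeq2 called none either. At an unadjusted p under 0.05 there was 1 member, RHEB. The median absolute change was 0.11 in the members and 0.27 over all genes, at median SEs of 0.28 and 0.27. Intervals of the members reached from -0.94 to 1.07 on the log2 scale, so that a change as large as that of AKT1S1 mRNA would not have been resolved for most of them.

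**Figure D3:**
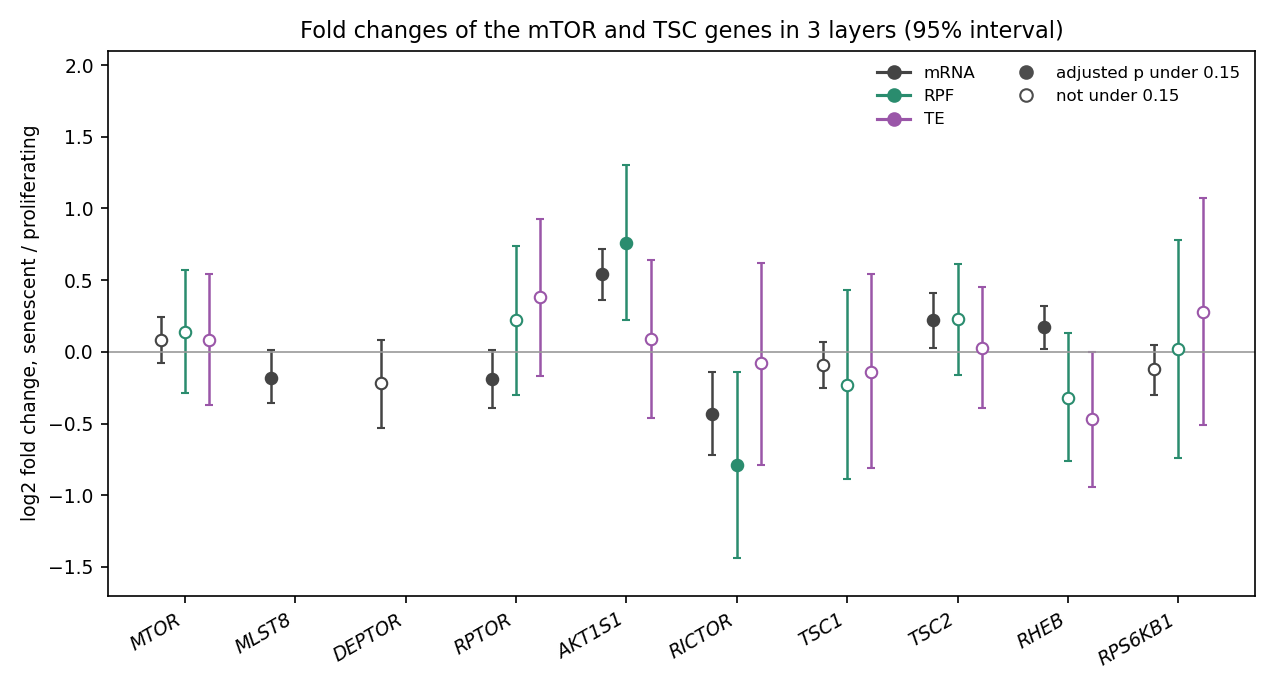
Log2 fold change (senescent over proliferating) of each gene in mRNA, RPF and TE with its 95% interval, filled where the adjusted p was under 0.15. mRNA values lie within 0.54 of 0, RPF and TE intervals are wider, and AKT1S1 and RICTOR are the genes filled in both mRNA and RPF.

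RHEB showed lower TE in each senescent lysate. The log2 ratio of RPF to mRNA was -0.23, -0.04 and 0.06 in Pro 1 to 3 and -0.50, -1.59 and -0.38 in Sen 1 to 3, and groups did not overlap for 16.2% of all genes. The Sen 2 value rests on 1 footprint. The fitted change was -0.47 ± 0.23 (p 0.0487, adjusted p 0.267), and it ranged from -0.56 to -0.38 over the alternatives. It was called only without Pro 1 (-0.56, adjusted p 0.128). Without both shallow lysates it was -0.47 (adjusted p 0.202).

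RPTOR went the other way, with log2 ratios of -0.12, -0.28 and -0.13 in proliferating and 0.01, 1.46 and 0.19 in senescent lysates. Its groups did not overlap and the fitted change of 0.38 ± 0.28 was not called (adjusted p 0.482). For AKT1S1, whose mRNA and RPF both rose, the TE change was 0.09 ± 0.27 (adjusted p 0.897), with ratios of 0.25, -1.53 and -1.77 against -1.78, -0.60 and -1.11. For RICTOR, where the fits called both lower, it was -0.08 ± 0.35 (adjusted p 0.923). The RICTOR ratios were -0.56, 0.93 and 0.90 against 0.52, 2.18 and 0.98. Their plain mean rose from 0.43 to 1.23, opposite to the fitted sign, with 0 footprints in Pro 1 and 3 in Sen 2. MTOR was at 0.08 ± 0.23, TSC2 at 0.03 ± 0.21, TSC1 at -0.14 ± 0.34 and RPS6KB1 at 0.28 ± 0.40, with adjusted p from 0.748 to 0.956.

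Levels per kilobase of coding sequence allow the members to be ranked against each other. In RNA-seq CDS reads of proliferating cells RHEB led with 128 ± 3.92 CPM per kb (SD, n = 3), before AKT1S1 with 114 ± 5.88. MLST8 followed with 50.8 ± 4.33, RPS6KB1 with 23.0 ± 1.10 and TSC2 with 19.3 ± 2.57. RPTOR (11.5 ± 0.244), TSC1 (10.1 ± 1.37) and MTOR (9.75 ± 0.426) lay together, and RICTOR (3.47 ± 0.743) and DEPTOR (3.42 ± 0.112) came last. Replicates overlapped between RPS6KB1 and TSC2, between RPTOR and TSC1, between TSC1 and MTOR and between RICTOR and DEPTOR, so these neighbours have no resolved order.

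In senescent cells AKT1S1 came first (170 ± 18.7 CPM per kb) and RHEB second (141 ± 11.1), with overlapping replicates. TSC2 and RPS6KB1 stood at 22.9 and 22.1, again overlapping. RICTOR moved to the end with 2.77 ± 0.198, just under DEPTOR with 3.21 ± 0.267, and here the replicates did not overlap. The mRNAs of subunits that share a complex thus lay close for some pairs and far apart for others. RPTOR lay near MTOR, its partner in mTORC1. In proliferating cells its replicates (11.3, 11.3 and 11.7) were all above those of MTOR (9.47, 9.54 and 10.2), and in senescent cells the replicates overlapped. In proliferating cells RICTOR lay 2.81-fold below MTOR, its partner in mTORC2. MLST8, shared by both complexes, had 50.8 CPM per kb there against 9.75 for MTOR.

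**Figure D4:**
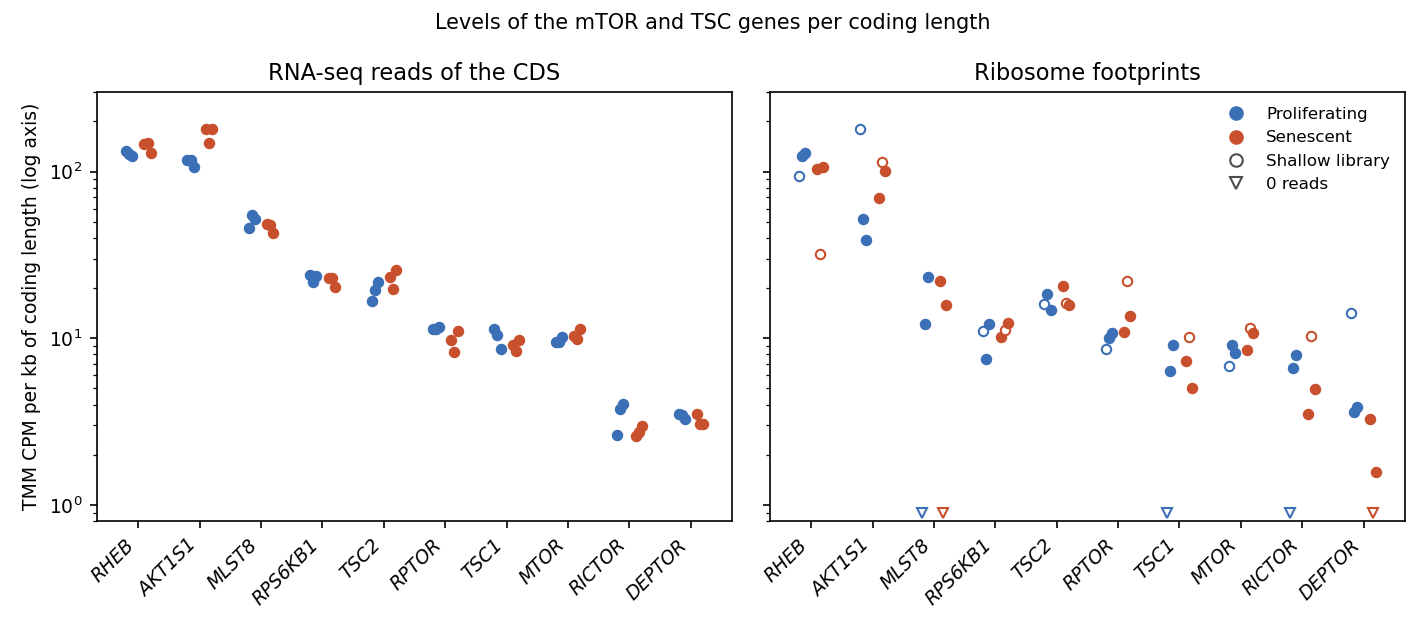
CDS reads of each gene per kilobase of coding length (TMM CPM per kb, log axis) in RNA-seq and Ribo-seq libraries, by state, with open circles for shallow libraries and triangles for 0 reads. RHEB and AKT1S1 lie highest in both library types, MLST8 comes next in RNA-seq and falls to the level of TSC2 in footprints, and RICTOR and DEPTOR lie lowest in RNA-seq.

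Footprints per kilobase followed a similar order with less resolution. RHEB had 116 ± 18.9 in proliferating and 80.2 ± 41.9 in senescent cells, and AKT1S1 had 90.6 ± 78.4 and 94.9 ± 23.4. All other members lay between 1.62 and 17.5 CPM per kb. MLST8 had 11.8 ± 11.6 and 12.6 ± 11.3 footprints per kb, below TSC2 with 16.4 ± 1.78 and 17.5 ± 2.69, although its mRNA per kb was 50.8 against 19.3 in proliferating cells. Without the shallow libraries MLST8 had 17.7 and 18.9 and TSC2 16.6 and 18.2. MLST8 replicates overlapped those of TSC2 in proliferating cells. From TSC2 down to RICTOR no neighbours in the footprint order were resolved in either state.

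The reads of each gene were also split by region. Pooled over 3 libraries a state, 18.9% of AKT1S1 footprints in mRNA regions lay in the 5′ UTR in proliferating cells (20 of 106 reads, exact 95% interval 11.9 to 27.6) and 17.0% in senescent cells (26 of 153, 11.4 to 23.9). In RNA-seq reads the 5′ UTR share was 9.1% and 8.0% for AKT1S1, 10.6% and 8.3% for RPTOR, and 20.9% and 22.2% for RHEB. RPTOR had 9.82% and 10.9% of its footprints there, and RHEB 7.10% and 6.45%. Over all genes the share was 3.2% in proliferating and 9.3% in senescent libraries, and it reached 44.7% in Sen 2, 13.8% in Sen 3 and 10.2% in Pro 1. For AKT1S1, RPTOR and RHEB the share of each state lay within the interval of the other, and pooled intervals cover counting error only.

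RPS6KB1 had 8 of 49 footprints in the 5′ UTR in proliferating (16.3%, interval 7.32 to 29.7) and 1 of 36 in senescent cells (2.78%, 0.0703 to 14.5), and these intervals overlap. TSC1 had 11 of 82 and 5 of 65 footprints there. In its 3′ UTR, TSC1 had 3 of 82 footprints in proliferating (3.66%, 0.761 to 10.3) and 11 of 65 in senescent cells (16.9%, 8.76 to 28.3), of which 5, 2 and 4 came from Sen 1, 2 and 3. The intervals overlap, and the share over all genes went from 1.9% to 4.5%. MTOR, TSC2 and RICTOR had no 5′ UTR footprint in either state. For TSC2 the count of 0 of 207 and 0 of 216 reads allows at most 1.77% and 1.69%, and its RNA-seq libraries held only 2 reads of the 5′ UTR, so the annotated leader was hardly covered at all. RICTOR likewise had 7 such RNA-seq reads in 6 libraries, 5 of them in proliferating cells.

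The 3′ UTR share of RNA-seq reads was set by the gene more than by the state. It was highest in TSC1 (53.5% in proliferating, 56.2% in senescent cells) and DEPTOR (53.6% and 50.3%) and lowest in MTOR (12.7% and 12.1%) and TSC2 (13.6% and 13.4%). RPTOR had the widest gap between the states, 28.4% against 33.7%, in 1473 and 1418 reads. Over all genes the share also rose, from 24.9% to 27.7%. These shares were described and not tested.

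The genes whose mRNA followed MTOR most closely over the 6 RNA-seq libraries were ABCB8 (Pearson r 0.987 of log2 CPM), TP53I13 (0.985) and RANGAP1 (0.983), and 30 of 12786 genes exceeded 0.95. All 3 were highest in Sen 3 and second highest in Sen 1, as MTOR was. Among the members TSC2 was nearest (0.908), and DEPTOR (-0.808) and MLST8 (-0.629) ran against it. These values describe 6 libraries that share depth and state and carry no test.

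The rest of the pathway was taken from 5 lists. In mRNA 75 of their 96 tested genes were called, where 73.6% of all genes were, and in RPF 38 of 75, where 54.4% were. By direction, the shares of all genes were 36.6% higher and 37.0% lower in mRNA and 27.5% and 26.9% in RPF. In TE they were 6.32% and 3.73%. DESeq2 called 10 in RPF and 1 in TE. Among the calls given below it did not make those of MIOS, FLCN, DDIT4, PDPK1, AKT1, EIF4E and EEF2 in RPF (adjusted p from 0.202 to 0.618) or of SEC13 and FLCN in TE (adjusted p 0.999). Subunits and assembly factors beyond the members gave 5 calls of 7 in mRNA. PRR5L, an optional subunit of mTORC2, rose most (log2 2.24 ± 0.17), and MAPKAP1 (SIN1), an obligate one, rose by 0.28 ± 0.07 (adjusted p 0.00191), in contrast to RICTOR. TTI1 (-0.79 ± 0.11) and TELO2 (-0.38 ± 0.11), which help assemble mTOR and related kinases, fell. TBC1D7, a further TSC subunit, was at 0.02 ± 0.15 (adjusted p 0.92), with a sign that depended on the setting.

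**Figure D5:**
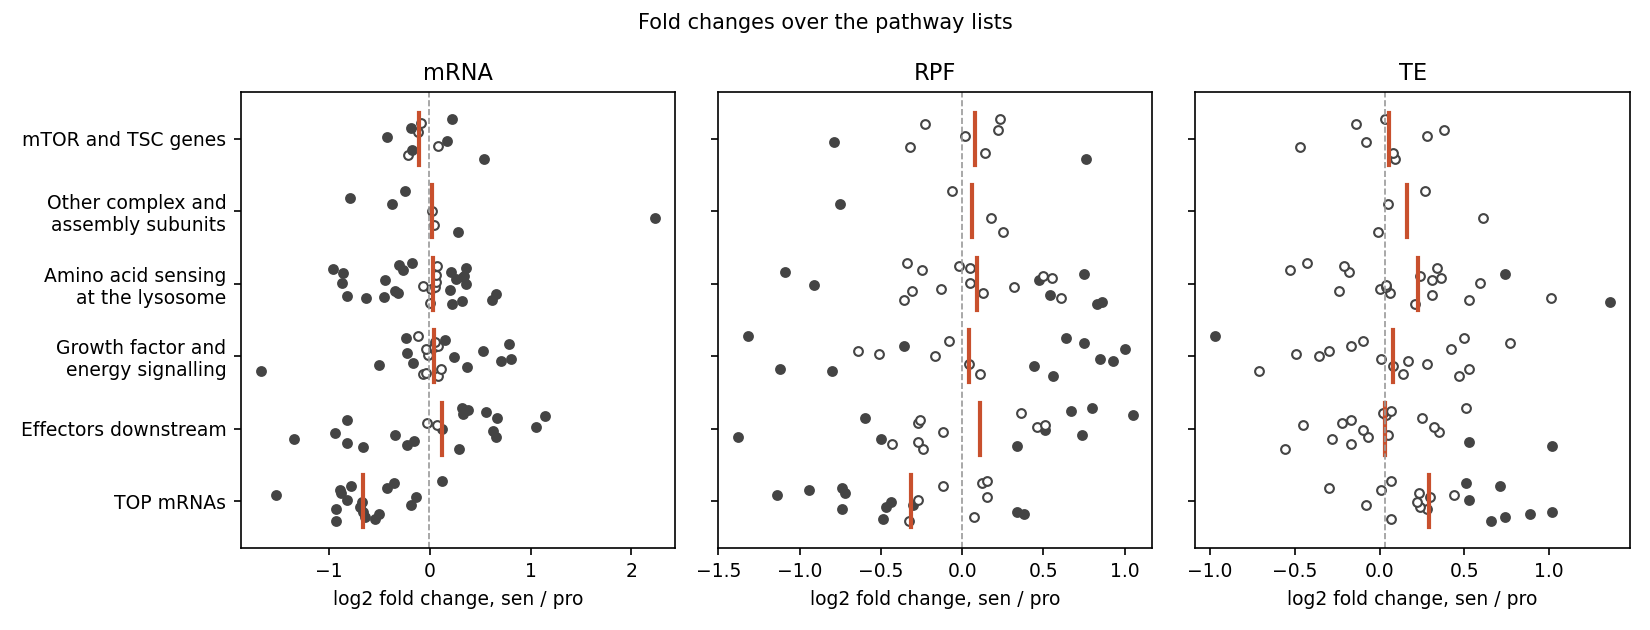
Log2 fold changes of the tested members and of 5 pathway lists in mRNA, RPF and TE, 1 point a gene and filled where the adjusted p was under 0.15. Red bars are list medians and the dashed line is the median of all genes, and the TOP mRNAs have the median farthest from it, at -0.66 in mRNA and 0.29 in TE.

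Amino acid sensors at the lysosome were called in both directions, with 11 higher and 12 lower of 30 in mRNA and 5 higher and 2 lower of 20 in RPF. Of the 5 listed subunits of GATOR2, which relays amino acid signals, 4 were called lower in mRNA, where 37.0% of all genes were. These were SEH1L (-0.86 ± 0.08), MIOS (-0.87 ± 0.10), WDR24 (-0.31 ± 0.11) and WDR59 (-0.18 ± 0.09), the last pair named after their values were seen. GATOR2 was not a list of its own, and its subunits were not tested as a group. SEH1L (-1.09 ± 0.23) and MIOS (-0.91 ± 0.41) were also lower in RPF. SEC13, also a coat protein of secretory vesicles, was at 0.06 ± 0.07 in mRNA (adjusted p 0.49) and rose in RPF (0.75 ± 0.16) and TE (0.74 ± 0.16, adjusted p 0.00231). The MIOS call in RPF was lost without Sen 3 (-0.77, adjusted p 0.224), while the value was -1.55 without Sen 1 and -1.36 without Pro 3, and the SEC13 call in TE without Pro 2 (adjusted p 0.159) or Sen 3 (adjusted p 0.163). FLCN, which activates the RagC and RagD GTPases, fell in mRNA (-0.46 ± 0.10) and rose in RPF (0.86 ± 0.34) and TE (1.36 ± 0.35, adjusted p 0.0151), on 1 to 42 footprints a library. Its TE call was lost without Pro 3 (1.38, adjusted p 0.179) or Sen 1 (1.51, adjusted p 0.161), and its RPF call without Pro 3 (0.77, adjusted p 0.253). SESN2, a leucine sensor that inhibits mTORC1, fell in mRNA (-0.27 ± 0.09) and was at 0.05 ± 0.26 in RPF.

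Upstream of TSC, 12 of 22 genes were called in mRNA (7 higher, 5 lower) and 11 of 17 in RPF (7 higher, 4 lower). In RPF, DESeq2 called 0 of these 17, and with the replicate number as a block 2 were called higher and 2 lower. DDIT4 (REDD1), a stress-induced inhibitor of mTORC1 that acts through TSC, fell most. Its mRNA was at 113, 132 and 121 CPM in proliferating and 44.7, 37.4 and 32.8 CPM in senescent replicates (log2 -1.68 ± 0.09, adjusted p 1.02e-12), and its RPF fell by 1.12 on the log2 scale (adjusted p 1.92e-05). The RPF groups overlapped, with 1 read in Pro 1. PDPK1, which phosphorylates AKT and S6 kinases, rose in mRNA (0.81 ± 0.09) and RPF (0.85 ± 0.27, adjusted p 0.00788). AKT1 was at 0.08 ± 0.07 in mRNA and was called higher in RPF (0.56 ± 0.22, adjusted p 0.0325), a call lost without Sen 1 (0.58, adjusted p 0.186).

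Downstream, 19 of 21 effectors were called in mRNA (11 higher, 8 lower) and 9 of 18 in RPF (6 higher, 3 lower). EIF4EBP1 (4E-BP1), the translation repressor that mTORC1 inactivates, fell in both layers. Its mRNA was at 134, 144 and 120 CPM in proliferating and 54.2, 53.4 and 48.9 CPM in senescent replicates (log2 -1.35 ± 0.08, adjusted p 3.32e-12), and its RPF was at -1.38 ± 0.28 (adjusted p 4.51e-05), or -2.16 without Sen 1. EIF4E, the cap-binding protein it holds, fell by 0.50 ± 0.20 in RPF (adjusted p 0.0362) and was at -0.16 ± 0.08 in mRNA (adjusted p 0.0776). The RPF call of EIF4E was lost without Sen 3 (-0.36, adjusted p 0.213), its RPF value was -0.81 without Sen 1, and its mRNA call without Sen 3 (-0.11, adjusted p 0.226) or Sen 1 (-0.15, adjusted p 0.172). RPS6, the substrate of RPS6KB1, fell in mRNA (-0.82 ± 0.09) and RPF (-0.60 ± 0.17), the latter not called without Sen 1 (-0.44, adjusted p 0.189). SGK1, a kinase activated by mTORC2, rose in mRNA (1.14 ± 0.08) and RPF (1.05 ± 0.20), and MITF, a lysosomal gene regulator that mTORC1 keeps out of the nucleus, rose in mRNA (1.05 ± 0.09).

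The 18 TOP mRNAs other than those of ribosomal proteins moved together at the mRNA level, with 17 called lower and VIM called higher (0.12, not called without Pro 1, Pro 2, Sen 1 or Sen 3). Their median log2 fold change was -0.66 in mRNA, -0.32 in RPF (9 called lower, 2 higher) and 0.29 in TE (7 called higher, none lower), beside medians of -0.01, -0.00 and 0.03 over all genes. EEF2 had the largest TE rise of the list, 1.02 ± 0.18 (adjusted p 6.06e-05), with log2 ratios of 0.36, 0.16 and 0.38 in proliferating and 1.11, 1.29 and 1.43 in senescent lysates. Its mRNA fell by 0.66 and its RPF was at 0.34 ± 0.18 (adjusted p 0.126), not called without Pro 2, Pro 3, Sen 1 or Sen 3. The number of TOP mRNAs called in TE fell to 1 without Sen 3 and to 3 without Pro 2 or Sen 1, while the median stayed between 0.18 and 0.43 under every alternative run. DESeq2 called 1 of them in TE, and 28 of all genes. None of the members whose starts are shown above had a TE call or a TOP-like start. Over all genes 10.0% had a TE call and 4.6% of starts were TOP-like, so none among so few members is near the background. Any link between start and TE was not tested.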

How the data were processed

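Ribo-seq and poly(A) RNA-seq of 3 proliferating and 3 senescent IMR90 lysates were used. The authors assigned reads to the regions of each gene and deposited them as unscaled expected counts, of which 12.1% to 22.7% of nonzero CDS values were fractions of a read. The design had assumed plain counts, so values were rounded to whole numbers after regions were summed. The submitters' processing notes name cutadapt 1.18, Bowtie 1.0.1, SAMtools 1.8 and DESeq2 1.22.2, while genome build, strand rule and handling of shared reads are not given in the sources used here. mRNA was the RNA-seq reads of both UTRs and the CDS together, and RPF was CDS reads in Ribo-seq, for 16451 symbols with a CDS read.

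Genes were filtered with filterByExpr, scaled with TMM factors within each library type and tested with the two-sided quasi-likelihood test of edgeR 4.0.16 (R 4.3.3), called at the published false discovery rate of 15%. TE was the interaction of library type and state with the lysate as block. The TE of a lysate was log2 of RPF over mRNA after adding 0.5 reads to each. The scripts were tested on simulated counts. DESeq2 1.42.0, other scalings, filters, a threshold of 0.05 and leaving out libraries were alternatives. Shares of reads carry exact Clopper-Pearson 95% intervals, and a count of 0 was read as up to 3 counts. Intervals and floors cover counting error only. Coordinates of genes are GENCODE v44 lifted to GRCh37 by its makers, and coding length is that of the canonical transcript.

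The 10 members and the lists were chosen with earlier results of these data known. Besides the members and 8 fixed partners, the genes named are among the 2 highest and 2 lowest fold changes of each list and layer, among called genes whose states do not overlap, and the 3 most like MTOR. Some genes that this rule picks are not reported here.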

Additional observations from a re-analysis of the deposited data

How the results depend on the processing

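Of the members, AKT1S1 and RICTOR were called in mRNA under all 13 alternatives, and the number of members called in mRNA stayed between 4 and 7. In RPF, 2 members were called, 0 with DESeq2 and 0 to 3 when 1 library was left out. In TE, none was called except when Pro 1 was left out (range 0 to 1). Of the pathway lists, 38 genes were called in RPF, against 10 with DESeq2, 25 at a threshold of 0.05 and 19 to 41 with 1 library left out. In TE 10 were called, against 1 with DESeq2, 6 when 1 read sufficed to enter the test, 6 at 0.05 and 2 to 9 with 1 library left out. Over all genes DESeq2 called 1164 in RPF and 28 in TE.

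Signs changed among uncalled values. On library totals AKT1 was -0.03, MTOR -0.023 and TBC1D7 -0.086 in mRNA, MTOR -0.002, RPS6KB1 -0.118 and SESN2 -0.093 in RPF, and TSC2 -0.045 in TE. RLE factors gave -0.004 for RPS6KB1 in RPF and -0.013 for TSC2 in TE, and the wider test from 1 read gave -0.022 for TSC2 in TE. DESeq2 gave TE values of -0.064 for AKT1S1, 0.23 for RICTOR, 0.034 for TSC1 and -0.10 for TSC2. TBC1D7 was -0.099 without both shallow lysates and -0.051 in CDS reads only. With 1 library left out, TE ranged from -0.215 to 0.509 for AKT1S1, -0.021 to 0.255 for MTOR, -0.197 to 0.285 for RICTOR, -0.442 to 0.376 for TSC1 and -0.255 to 0.169 for TSC2. RPF ranged from -0.171 to 0.467 for RPS6KB1, -0.469 to 0.216 for TSC1, -0.004 to 0.349 for TSC2, -0.302 to 0.218 for SESN2 and -0.024 to 0.327 for MAPKAP1, and TBC1D7 mRNA from -0.077 to 0.164. Each cause was not tested.

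Same-numbered Pro and Sen libraries deviated from their group means with correlations of 0.107, -0.21 and 0.248 in mRNA and 0.011 to 0.028 in RPF, and the labels tie the numbers to no shared donor, day or batch, so the numbers were not taken as pairs. The same measure was -0.046 to 0.059 between the RNA-seq and Ribo-seq libraries of 1 lysate, so low values in RPF do not show that samples are unpaired. With the replicate number as a block, 1 member (AKT1S1, adjusted p 0.139) and 21 pathway genes were called in RPF (2336 of all genes, against 4088) and 144 of all genes in TE (against 751), RICTOR was -0.251 in RPF (adjusted p 0.775) and 0.412 in TE, TSC2 was -0.11 in TE, the calls of AKT1 and EEF2 in RPF and FLCN in TE were lost, and SESN2 was -0.16 in RPF. In the shallow libraries Pro 1 and Sen 2, 3 reads made 52.1 and 52.7 CPM, so lower RPF levels were not resolved there.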
